A study of Mus musculus with 24 samples.

Results

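The genes described here are 6 transcription factors of the trophoblast (Cdx2, Elf3, Elf5, Gata3, Tfap2a and Tfap2c) and 4 keratins of simple epithelia (Krt7, Krt8, Krt18 and Krt19). They were chosen by name, as the 10 entries carrying these symbols among the 25965 entries of the expression table, with no threshold on a measured value. All were measured by RNA-seq in male C57/Bl6 mouse embryonic stem cells (mESCs) that were moved from medium with inhibitors of MEK and GSK3 (2i) into serum-containing medium for undirected differentiation. Cells were transduced with short hairpin RNAs (shRNAs) on day 2, selected with puromycin from day 3 and collected on days 4, 5, 6 and 7. The hairpins targeted Smarcc1 (hairpins 6 and 7) or Smarca4 (hairpins 4 and 6), a core subunit and the ATPase of the BAF nucleosome remodelling complex, and a nonsilencing hairpin (Nons) served as the control. No group carried another allele or agent, and all cells, Nons included, received a hairpin vector and puromycin.

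The table held 20 libraries: 8 of Smarcc1 knockdown, 8 of Smarca4 knockdown and 4 of Nons, with each hairpin followed as 1 culture series through the 4 days. The 4 samples of another Nons series are not analysed here, so each day had a single Nons library, both knockdowns were compared with that same library, and any property of the Nons culture itself cannot be told apart from an effect of knockdown. Replicates within a knockdown are different hairpins, and nothing says that libraries of 1 series came from separate cultures, so p-values measure only the spread between hairpins on the same day. Counts such as 8 of 8 libraries above or below Nons rest on these few series and the same Nons libraries. The share of all genes with such counts was not determined. Library totals ran from 6829596 to 27472885 reads, with the smallest (Smarca4 hairpin 4, day 5) followed by one of 15717152, and levels are given in rpm, reads per 1000000 reads, in which 3 reads corresponded to 0.109 to 0.439. In each knockdown all 8 libraries had less of the targeted transcript than the Nons library of that day. Smarcc1 stood at 23.7% to 60.1% of Nons in its knockdown, and Smarca4 at 21.6% to 55.3% in its own. A genotype field calls the Smarca4 libraries a Smarcc knockdown, and their titles were followed.

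The trophoblast is the first epithelium of the embryo and forms the placental side of the conceptus. Cdx2, Elf5, Gata3 and the AP-2 factors Tfap2a and Tfap2c belong to the network that establishes and maintains its stem cells, while Elf3 is an epithelium-restricted ETS factor. Keratins are obligate heteropolymers of a type II chain (Krt7, Krt8) with a type I chain (Krt18, Krt19); Krt8 with Krt18 is the founding pair of simple epithelia, and Krt7 and Krt19 join it in trophoblast and many ducts.

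Krt8 and Krt18 are neighbours in mm10. Krt8 lies on the minus strand at chr15:101996711-102004342 and Krt18 on the plus strand at chr15:102028216-102032026, so that the genes point away from each other across 23.9 kb. Krt7 lies on the same chromosome at chr15:101411043-101430313 on the plus strand, whereas Krt19 lies on the minus strand at chr11:100140810-100148665. The 250 bases before the RefSeq start (GRCm38.p6) are shown for the keratins with a window and for Cdx2, because these keratins were lower and Cdx2 higher in the libraries with Smarcc1 knockdown. The windows are chr15:102004343-102004592 (minus strand) for Krt8, chr15:102027966-102028215 (plus strand) for Krt18, chr15:101412153-101412402 (plus strand) for Krt7 and chr5:147307250-147307499 (minus strand) for Cdx2. The Krt7 window lies inside the interval the table gives for that gene, which opens further upstream. Capitals mark matches on either strand to 3 motifs. The first, GCCNNNGGC, is bound by AP-2 factors such as Tfap2a and Tfap2c. The second, with the letters AGATAA, is bound by Gata3 and its relatives. The third, with the letters GGAAGT, is bound by factors of the ETS family such as Elf3 and Elf5.
Krt8: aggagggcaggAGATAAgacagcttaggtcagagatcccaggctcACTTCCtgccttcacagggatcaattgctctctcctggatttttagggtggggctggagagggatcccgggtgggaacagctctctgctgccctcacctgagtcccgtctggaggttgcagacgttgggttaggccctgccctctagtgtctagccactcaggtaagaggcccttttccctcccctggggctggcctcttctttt
Krt18: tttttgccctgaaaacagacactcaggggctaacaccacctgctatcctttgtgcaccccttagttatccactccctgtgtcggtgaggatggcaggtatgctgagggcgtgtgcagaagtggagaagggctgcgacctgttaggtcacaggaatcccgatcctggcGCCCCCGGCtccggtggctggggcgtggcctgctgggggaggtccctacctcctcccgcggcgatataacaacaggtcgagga
Krt7: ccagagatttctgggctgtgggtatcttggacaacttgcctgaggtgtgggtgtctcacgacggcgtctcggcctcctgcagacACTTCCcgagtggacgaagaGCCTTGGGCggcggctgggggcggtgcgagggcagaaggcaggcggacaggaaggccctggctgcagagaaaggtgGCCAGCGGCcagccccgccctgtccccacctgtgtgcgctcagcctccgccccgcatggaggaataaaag
Cdx2: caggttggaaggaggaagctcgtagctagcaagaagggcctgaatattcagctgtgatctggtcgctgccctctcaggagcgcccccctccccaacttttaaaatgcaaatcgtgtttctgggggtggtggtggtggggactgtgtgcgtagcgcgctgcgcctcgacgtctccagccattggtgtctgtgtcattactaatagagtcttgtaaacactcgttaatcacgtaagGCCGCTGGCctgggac
The Krt8 window held 1 GATA match and 1 ETS match, that of Krt18 held 1 AP-2 match, that of Krt7 held 2 AP-2 matches and 1 ETS match, and that of Cdx2 held 1 AP-2 match. Of the 32851 promoter windows of this length, 13.7% held the AP-2 motif, 9.99% the GATA motif and 19.7% the ETS motif. No pair of matches overlapped in these 4 windows. Windows were found for 8 of the 10 genes. That of Elf3 held none of these letters, and that of Gata3 held 3 AP-2 matches.

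The 4 keratins were low on day 4 and rose by day 7, in every culture series. Averaged over the 3 conditions, Krt8 rose 92.6-fold from day 4 to day 7 (log2 difference 6.53 ± 0.17 SE, adjusted p = 6.33e-11, limma), Krt18 84.2-fold, Krt7 66.8-fold and Krt19 54.4-fold (adjusted p of at most 1.13e-09). All 4 keratins and none of the 3 testable factors passed the threshold, where 64.5% of the 13296 genes tested changed and 35.7% were higher on day 7. The median log2 difference was 5.77 over the 7 members tested and 0.08 over all genes tested, and centring each library on its median gene shifts such a difference by -0.18. The member median is the value of Krt19 and does not describe the factors, which stood at -0.01 (Elf3), 0.32 (Tfap2c) and 0.63 (Gata3).

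**Figure D1:**
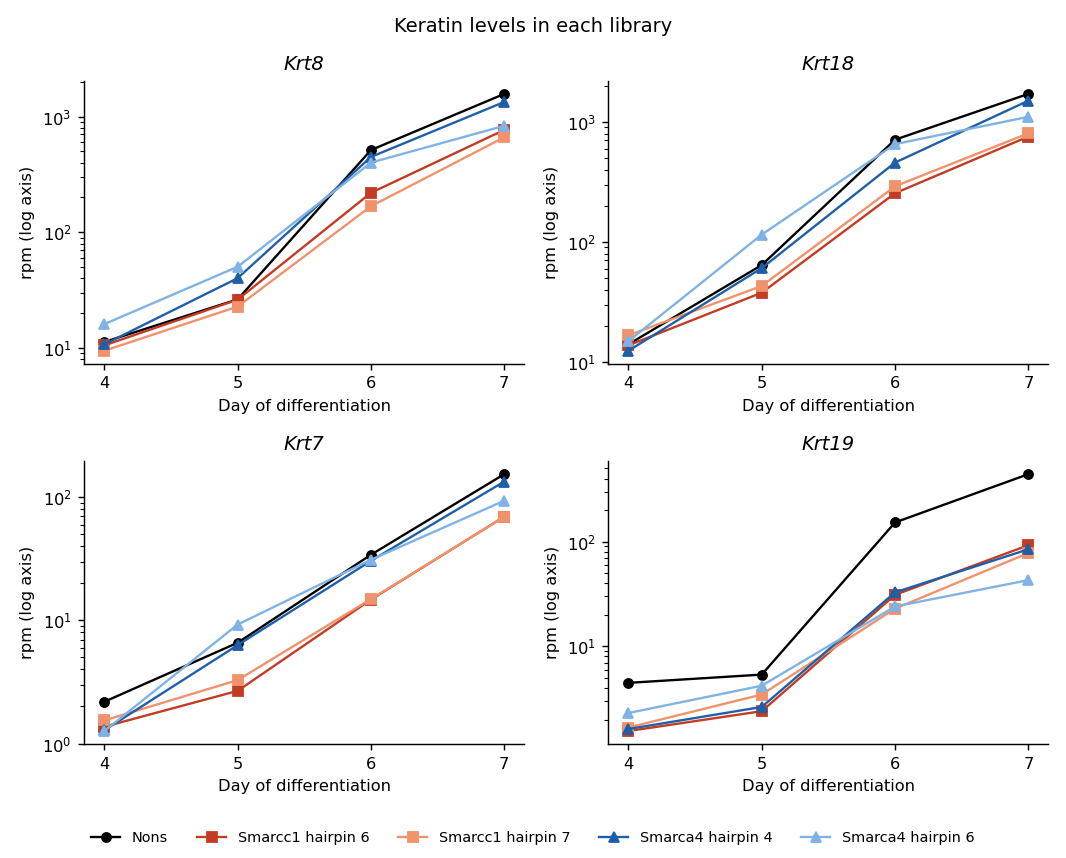
Level of each keratin in rpm (log axis) against day of differentiation, 1 point per library and 1 line per culture series. All series climb, most steeply between days 5 and 6 for Krt8 and Krt19 in each series, and the Nons line lies above all 4 knockdown lines for Krt19 on every day.

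Krt8, the type II chain that appears first in embryonic epithelia, measured 11.3, 26.3, 513 and 1569 rpm in Nons on days 4, 5, 6 and 7. With Smarcc1 knockdown it measured 10.5, 26.2, 219 and 766 rpm (hairpin 6) and 9.47, 22.8, 168 and 662 rpm (hairpin 7). With Smarca4 knockdown it measured 10.8, 40.1, 448 and 1336 rpm (hairpin 4) and 16.1, 50.4, 400 and 831 rpm (hairpin 6). The Smarcc1 libraries were close to Nons on days 4 and 5 and at less than the Nons level with both hairpins on days 6 and 7, while the Smarca4 libraries lay above Nons on day 5 and below it on days 6 and 7.

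Krt18, the type I partner of Krt8, measured 14.0, 64.2, 711 and 1712 rpm in Nons. With Smarcc1 hairpin 6 it measured 13.7, 37.7, 255 and 755 rpm and with hairpin 7 it measured 16.7, 42.9, 291 and 803 rpm. With Smarca4 hairpin 4 it measured 12.4, 60.5, 458 and 1503 rpm and with hairpin 6 it measured 14.9, 115 (day 5), 653 and 1103 rpm. From day 5 onward both Smarcc1 hairpins were below Nons and below both Smarca4 hairpins.

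Krt7, the second type II chain, was the least abundant keratin of the 4 on day 7 per length. It measured 2.18, 6.58, 34.2 and 154 rpm in Nons, 1.37, 2.68, 14.8 and 69.6 rpm with Smarcc1 hairpin 6, and 1.54, 3.27, 14.9 and 69.4 rpm with Smarcc1 hairpin 7. With Smarca4 hairpins it measured 1.28, 6.30, 30.5 and 134 rpm (hairpin 4) and 1.26, 9.26, 31.1 and 93.9 rpm (hairpin 6). The 2 Smarcc1 series were nearly superimposed and at 43.4% to 66.6% of Nons on average, whereas the Smarca4 means stood at 58.2%, 118%, 90.2% and 73.9% of Nons on days 4 to 7.

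Krt19, a type I chain with an unusually short tail, measured 4.48, 5.37, 152 and 441 rpm in Nons. It measured 1.55, 2.40, 31.0 and 92.5 rpm with Smarcc1 hairpin 6, 1.68, 3.46, 22.9 and 77.8 rpm with Smarcc1 hairpin 7, 1.62, 2.64, 32.8 and 84.5 rpm with Smarca4 hairpin 4, and 2.31, 4.20, 24.0 and 42.8 rpm with Smarca4 hairpin 6. Every knockdown library was below the Nons library of its day, already on day 4, and on day 7 the means stood at 19.3% (Smarcc1) and 14.4% (Smarca4) of Nons.

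Per kilobase of annotated exon, the day 7 order in Nons was Krt18 (1191 rpm per kb), Krt8 (801), Krt19 (238) and Krt7 (21.9). With a single Nons library a day, the spread of these 4 levels is not known. The Nons order on day 4 was the same, at 9.75, 5.76, 2.41 and 0.31 rpm per kb.

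Smarcc1 knockdown lowered all 4 keratins relative to Nons when the 4 days were averaged. Krt19 fell by 1.82 ± 0.22 (SE) on the log2 scale (adjusted p = 0.000187, limma, lower in 8 of 8 libraries) and Krt7 fell by 1.02 ± 0.15 (adjusted p = 0.000684, 8 of 8). Krt18 fell by 0.77 ± 0.17 (adjusted p = 0.0122, 7 of 8) and Krt8 fell by 0.71 ± 0.16 (adjusted p = 0.0113, 8 of 8). In all, 6 of the 7 members tested passed, where 10.6% of all genes tested did, 7.54% being higher and 3.08% lower. The calls of Krt8 and Krt18 depended on the later days, on the hairpins and on the model. With the culture series as a block, which lets libraries of 1 series be correlated, their adjusted p was 0.0863 and 0.0786. Without day 6 their log2 differences were -0.47 (adjusted p = 0.186) and -0.57 (adjusted p = 0.132), without day 7 they were -0.57 (0.149) and -0.65 (0.180, both adjusted p), and without hairpin 7 they were -0.59 and -0.86 (adjusted p = 0.123 and 0.0517). Without hairpin 6 the call of Krt18 was lost too (-0.68, adjusted p = 0.0824). The calls of Krt7 and Krt19 were kept in each of these fits.

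Smarca4 knockdown lowered Krt19 by as much, and no other keratin passed. Krt19 fell by 1.80 ± 0.22 on the log2 scale (adjusted p = 0.000492, limma, lower in 8 of 8 libraries). The differences were -0.29 for Krt7 (95% interval -0.61 to 0.02, adjusted p = 0.299), -0.11 for Krt18 (-0.49 to 0.26, adjusted p = 0.782) and 0.04 for Krt8 (-0.31 to 0.38, adjusted p = 0.940). Of the 7 members tested 3 passed, where 6.71% of all genes did, 4.75% being higher and 1.96% lower.

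**Figure D2:**
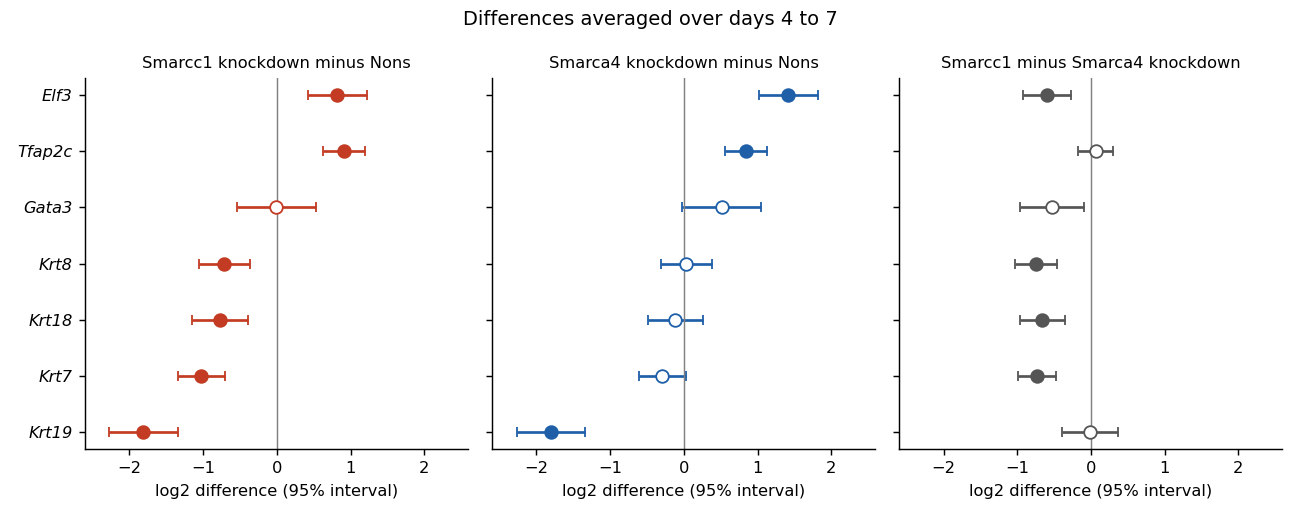
Log2 difference in level (log2 rpm, averaged over days 4 to 7) with its 95% interval for the 7 members tested, for Smarcc1 knockdown minus Nons, Smarca4 knockdown minus Nons, and Smarcc1 minus Smarca4 knockdown. Filled points have an adjusted p under 0.05; Elf3 and Tfap2c lie above 0 and Krt19 near -1.8 in both knockdowns, and Krt7, Krt8 and Krt18 are lower with Smarcc1 than with Smarca4 knockdown.

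The knockdowns were also compared with each other directly, which does not involve the Nons libraries. Krt8 (-0.75 ± 0.13 SE, adjusted p = 0.00725, limma), Krt7 (-0.73 ± 0.12, adjusted p = 0.00519) and Krt18 (-0.66 ± 0.14, adjusted p = 0.0211) were lower with Smarcc1 than with Smarca4 knockdown. For Krt19 the difference was -0.01 (95% interval -0.39 to 0.37, adjusted p = 0.986). With Elf3, 4 of the 7 members tested passed, where 4.09% of all genes did. These calls were fragile. None of the 4 passed with the culture series as a block (adjusted p from 0.0650 to 0.240), without day 6, without Smarcc1 hairpin 6 or without Smarca4 hairpin 6, and 1 passed without Smarcc1 hairpin 7 or without day 7.

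The day-by-day values show when the keratins parted from Nons. The Smarcc1 mean of Krt8 differed from Nons by -0.18 on day 4, -0.11 on day 5 and -1.42 on day 6, on the log2 scale. For Krt18 the values were 0.11, -0.67 and -1.39, and for Krt7 they were -0.59, -1.15 and -1.20. For Krt19 the difference was -1.47 on day 4, -0.90 on day 5 and -2.51 on day 6 with Smarcc1 knockdown, and -1.21, -0.69 and -2.44 with Smarca4 knockdown. The steepest step of Krt8 and Krt19 in each series was that from day 5 to day 6. It was largest in Nons for both, at 4.29 (Krt8) and 4.83 (Krt19) log2 units. The test of a different linear slope over days called no member in either knockdown by limma-trend or limma-voom, where 0.94% (Smarcc1) and 0.135% (Smarca4) of all genes passed. The unadjusted p was under 0.05 for Krt8, Krt18 and Krt19 with Smarcc1 knockdown (limma, 0.0111, 0.0135 and 0.0433) and for Krt8 and Krt19 with Smarca4 knockdown (0.0309 and 0.00412).

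**Figure D3:**
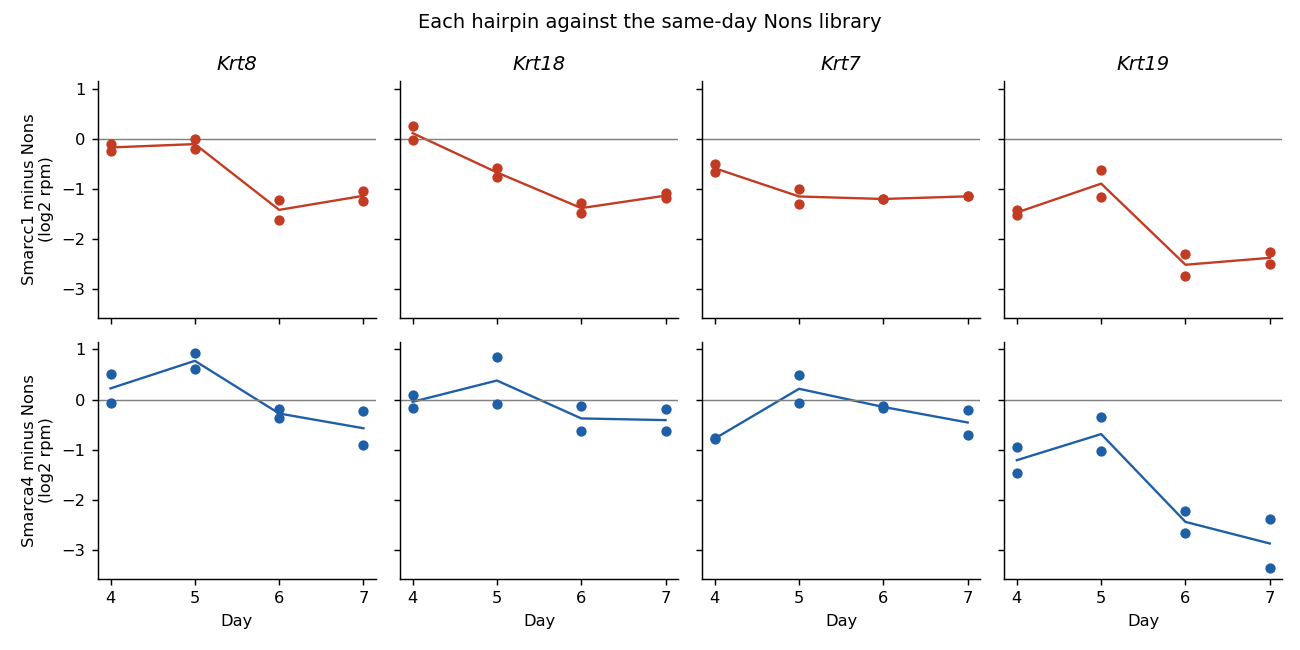
Log2 rpm of each hairpin minus the same-day Nons library for the 4 keratins (points are the 2 hairpins, lines their mean, and 0 is Nons), Smarcc1 above and Smarca4 below. The Smarcc1 values of Krt8 drop between days 5 and 6, and those of Krt18 fall from day 4 to day 5 and again to day 6. Those of Krt7 stay near -1.2 from day 5, and Krt19 is below 0 throughout in both knockdowns.

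Because keratin chains work in pairs, their ratios within a library were followed as well, as a description with no test. The log2 ratio of Krt8 to Krt18, per kb, averaged -0.99 in Nons, -0.93 with Smarcc1 and -0.85 with Smarca4 knockdown. Its range was -1.73 to -0.57 in the 4 Nons libraries, -1.36 to -0.43 with Smarcc1 and -1.64 to -0.33 with Smarca4 knockdown, so the groups overlapped. Krt19 stood at 41.9%, 21.5%, 31.3% and 29.6% of the Krt8 level per kb in Nons on days 4 to 7, against 9.68% to 18.7% in the 8 Smarcc1 libraries and 5.44% to 15.9% in the 8 Smarca4 libraries. No knockdown library overlapped with Nons, whose 4 libraries are 1 culture series. The share of all gene pairs that separate in this way was not counted, and the ratios were chosen after seeing the data.

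**Figure D4:**
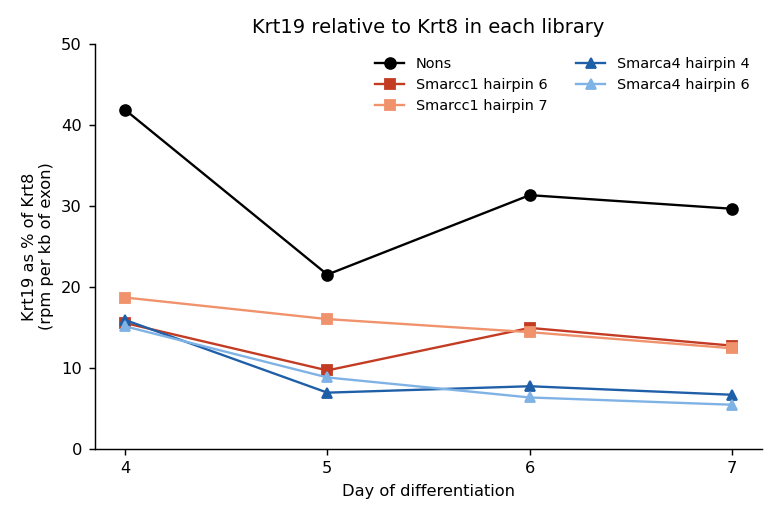
Krt19 as a percentage of Krt8, both in rpm per kb of exon, against day, with 1 point per library. The 4 Nons libraries lie between 21.5% and 41.9%, all above the 16 knockdown libraries, of which the highest is at 18.7%.

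Across the 20 libraries the log2 levels of the keratins ran together, with Pearson's r from 0.938 (Krt19 with Krt7 or Krt18) to 0.990 (Krt8 with Krt18). These libraries share their day of collection and their culture series, and all 4 keratins rose with day, so the points are not independent. The genes outside the members with the most similar course were Fam114a1 (r = 0.991 with Krt8), Cxcl16 (r = 0.992 with Krt18), Pcgf5 (r = 0.990 with Krt7) and Tagln (r = 0.981 with Krt19). The next 4 for Krt8 were Cmtm7, H19, Acta1 and Pcgf5, for Krt18 they were Fam114a1, Pcgf5, Chkb and Tnfaip2, for Krt7 they were Fam114a1, H19, Tnfaip2 and Timp2, and for Krt19 they were Fam89a, Nek6, Relt and Cgref1.

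The transcription factors did not follow the keratins. Elf3 and Tfap2c were higher than Nons in 8 of 8 libraries of both knockdowns, which share the Nons library of each day. The level of Gata3 was lowest on day 5 in each series. Cdx2 and Elf5 were near the limit of detection, and Tfap2a was low, at 4 to 54 reads a library.

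**Figure D5:**
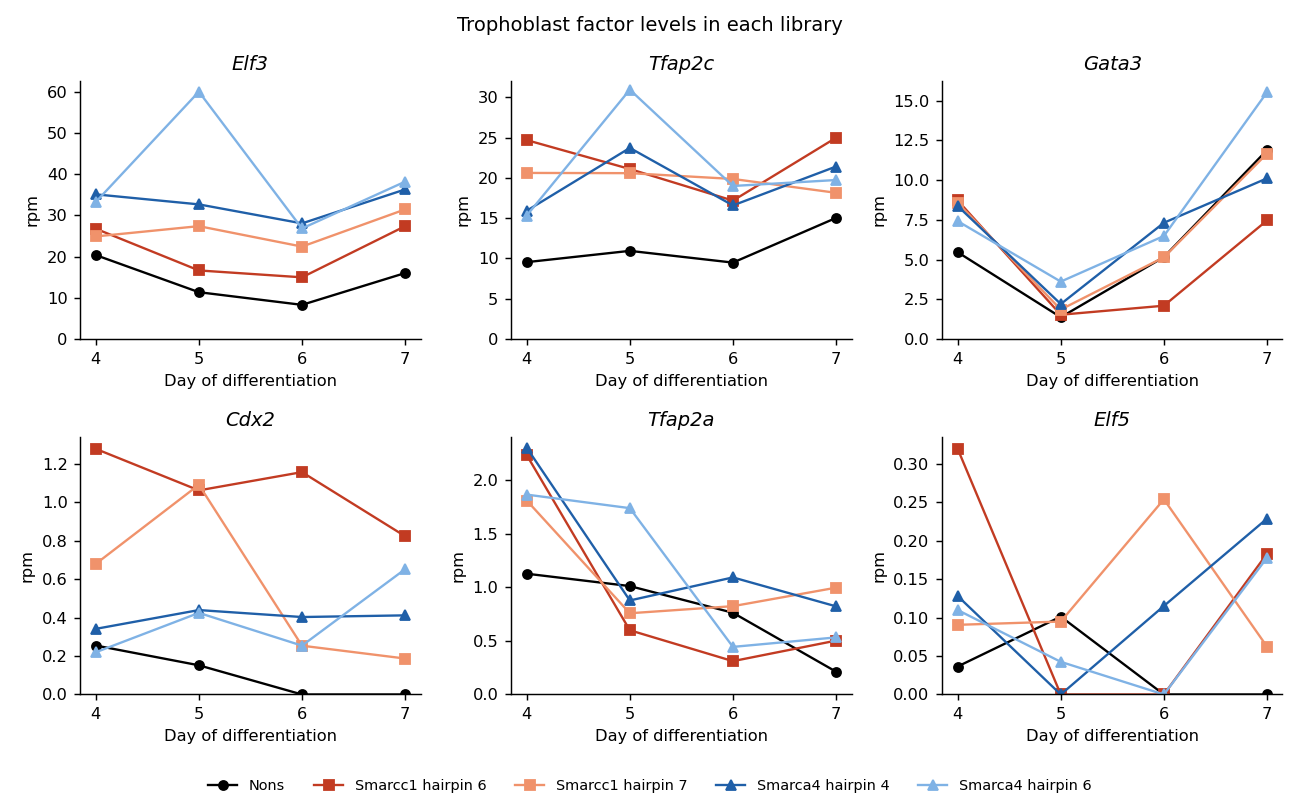
Level of each transcription factor in rpm (linear axis from 0, a different range in each panel) against day, with 1 point per library and 1 line per culture series. The Nons line is lowest on every day for Elf3 and Tfap2c, Gata3 dips on day 5 in all 5 series, and Cdx2 and Elf5 reach at most 1.28 and 0.319 rpm.

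Elf3 (chr1:135253574-135258472, minus strand) measured 20.3, 11.3, 8.27 and 16.0 rpm in Nons on days 4 to 7. It measured 26.7, 16.6, 15.0 and 27.4 rpm with Smarcc1 hairpin 6 and 24.9, 27.4, 22.4 and 31.4 rpm with hairpin 7. With Smarca4 hairpin 4 it measured 35.1, 32.7, 28.0 and 36.3 rpm, and with hairpin 6 it measured 33.2, 60.0, 26.8 and 38.2 rpm. The Smarca4 libraries were above the Smarcc1 libraries on each day, and both were above Nons. Averaged over days, Elf3 rose 1.76-fold with Smarcc1 knockdown (log2 difference 0.82 ± 0.18 SE, adjusted p = 0.0123, limma) and 2.67-fold with Smarca4 knockdown (1.41 ± 0.18, adjusted p = 0.000714). The direct difference, Smarcc1 minus Smarca4, was -0.60 ± 0.15 (adjusted p = 0.0450). The Smarcc1 call was lost with the culture series as a block (adjusted p = 0.0767), without hairpin 7 (0.64, adjusted p = 0.0943), without day 6 (0.71, adjusted p = 0.0706) and without day 7 (0.80, adjusted p = 0.124), and the direct difference was lost with the block (adjusted p = 0.240) and when any hairpin or any day was left out (adjusted p from 0.0504 to 0.365). From day 4 to day 7 Elf3 differed by -0.01 (95% interval -0.45 to 0.42).

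Tfap2c, the AP-2 gamma factor that also acts in germ cells, lies at chr2:172549593-172558622 on the plus strand. It measured 9.54, 10.9, 9.48 and 15.0 rpm in Nons, 24.7, 21.1, 17.2 and 25.0 rpm with Smarcc1 hairpin 6, and 20.6, 20.6, 19.9 and 18.1 rpm with hairpin 7. It measured 15.9, 23.7, 16.6 and 21.4 rpm with Smarca4 hairpin 4 and 15.3, 31.0, 19.0 and 19.7 rpm with hairpin 6. The highest Nons value was the 15.0 rpm of day 7, and the lowest of the 16 knockdown libraries was at 15.3 rpm (Smarca4 hairpin 6, day 4). The 4 Nons libraries are 1 culture series, and the share of all genes that separate in this way was not counted. Tfap2c rose 1.88-fold with Smarcc1 (log2 difference 0.91 ± 0.13 SE, adjusted p = 0.000785, limma) and 1.80-fold with Smarca4 knockdown (0.84 ± 0.13, adjusted p = 0.00235). Without Smarca4 hairpin 6 the latter was 0.79 with an adjusted p of 0.0612. The knockdowns differed from each other by 0.07 (95% interval -0.17 to 0.30). The change from day 4 to day 7 was 0.32 (adjusted p = 0.0660).

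Gata3 (chr2:9857078-9890034, minus strand), the zinc-finger factor of the trophectoderm, measured 5.46, 1.37, 5.15 and 11.9 rpm in Nons. It measured 8.72, 1.52, 2.09 and 7.46 rpm with Smarcc1 hairpin 6 and 8.56, 1.85, 5.14 and 11.7 rpm with hairpin 7. With Smarca4 hairpin 4 it measured 8.37, 2.20, 7.31 and 10.1 rpm, and with hairpin 6 it measured 7.41, 3.61, 6.48 and 15.5 rpm. Each series had its lowest value on day 5, from which the level was higher again on days 6 and 7. Smarcc1 knockdown differed from Nons by -0.01 on the log2 scale (95% interval -0.55 to 0.53) and Smarca4 knockdown by 0.52 (-0.02 to 1.05, adjusted p = 0.277). Day 7 against day 4 gave 0.63 ± 0.27 SE (adjusted p = 0.0545), and a test of day 5 against the other days was not planned or run. The interval of Gata3 in the table overlaps 3 other annotated genes, of which 9230102O04Rik lies on the same strand. Whether that gene shares exon sequence with Gata3 was not examined. Strand use in counting is not given in the sources used here, so reads of overlapping genes on the other strand cannot be told apart. Krt7, Krt8 and Elf3 each overlap 1 annotated gene on the other strand as well, and Tfap2a overlaps 2.

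By the same measure over the 20 libraries, the genes outside the members with the course most like Elf3 were Sox15 (r = 0.895), Ccdc102a, Gtf2a1, Mavs and Tbkbp1. For Tfap2c they were Tfeb (r = 0.787), Tcp11, Sox15, Tmem220 and 6030429G01Rik, and for Gata3 they were Kifc3 (r = 0.934), Slc6a8, Lasp1, Nr4a1 and Phka1. The libraries share day and culture series here as well, and the likeness is a description.

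Cdx2 (chr5:147300805-147307270, minus strand), the homeobox factor that specifies trophectoderm, was read 206 times in the 20 libraries. Nons had 7, 3, 0 and 0 reads on days 4 to 7, Smarcc1 hairpin 6 had 28, 23, 26 and 18 reads, and Smarcc1 hairpin 7 had 15, 23, 4 and 3. Smarca4 hairpin 4 had 8, 3, 7 and 9 reads and hairpin 6 had 4, 10, 4 and 11. In rpm Cdx2 was above same-day Nons in 8 of 8 Smarcc1 and 7 of 8 Smarca4 libraries, by few reads in most. Summed over days, the level was 0.122 rpm in Nons (10 reads, exact Poisson 95% interval 0.0587 to 0.225), 0.860 rpm with Smarcc1 (140 reads, 0.723 to 1.01) and 0.389 rpm with Smarca4 knockdown (56 reads, 0.294 to 0.506). The ratio to Nons was 7.02 (95% interval 3.71 to 15.0) and 3.18 (1.61 to 6.99), where intervals cover counting error only and not the spread between cultures. Cdx2 was under the filter on low levels. A fit with no filter gave adjusted p of 0.00138 (Smarcc1) and 0.0351 (Smarca4, limma), in which the fold of a gene with libraries at 0 has no fixed size.

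Tfap2a (chr13:40715675-40733823, minus strand), the AP-2 alpha factor, had 4 to 54 reads a library. Its highest value in every series was on day 4, from 1.13 rpm in Nons to 2.30 rpm with Smarca4 hairpin 4, and on day 7 it ranged from 0.213 rpm in Nons to 0.998 rpm with Smarcc1 hairpin 7. In the fit with no filter it fell by 1.85 on the log2 scale from day 4 to day 7 (adjusted p = 0.00121, limma), and neither knockdown passed (adjusted p = 0.864 and 0.505). Elf5 (chr2:103411688-103450989, plus strand), an ETS factor that keeps trophoblast stem cells in their lineage, had 39 reads in all and at most 3 reads in 16 of the 20 libraries. At this depth no difference of Elf5 was detectable.

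Other genes of the trophoblast give the setting of these factors. Of a list of 25, 24 were in the table and 18 were tested. With Smarcc1 knockdown 3 rose and 0 fell, where 7.54% of all genes rose and 3.08% fell, namely Gcm1 (log2 difference 1.59), the regulator of syncytiotrophoblast, the imprinted placental growth regulator Phlda2 (0.76) and the placental homeobox gene Esx1 (0.91). With Smarca4 knockdown 3 rose and 0 fell, where 4.75% of all genes rose and 1.96% fell, namely Esx1 (1.31), Phlda2 (0.58) and Hand1 (1.35), which acts in giant cells and also in mesoderm. The list's median log2 difference was -0.03 and 0.15, beside 0.06 for all genes in both comparisons. From day 4 to day 7, 13 rose and 2 fell, where 64.5% of all genes changed and 35.7% rose. The summed level of the list was 514 to 1379 rpm in Nons, 612 to 1401 rpm with Smarcc1 and 679 to 1774 rpm with Smarca4 knockdown. Much of this sum was Peg10, at 250 to 662 rpm in Nons, 361 to 1119 rpm with Smarcc1 and 393 to 1127 rpm with Smarca4 knockdown. Prl2c2, Prl3d1 and Synb, which mark giant cells and syncytiotrophoblast, had at most 3 reads in every library.

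Paralogs of the factors were counted for comparison. Of 6 tested, 3 rose with each knockdown and 0 fell, beside 7.54% (Smarcc1) and 4.75% (Smarca4) of all genes that rose. Elf4 (0.90) rose with Smarcc1 and Gata2 (1.10) with Smarca4 knockdown in all 8 libraries, and Cdx4 and Gata4 rose in both without being higher in every library. Of 4 other keratins tested, none passed in either knockdown. From day 4 to day 7, 1 of them rose (Krt20, log2 difference 5.10) and 1 fell (Krt42, -4.25), where 64.5% of all genes changed and 35.7% rose. The rise with day was thus not limited to the 4 keratins described here. Krt20 differed from Nons by -0.63 with Smarcc1 and -0.12 with Smarca4 knockdown. At an unadjusted p under 0.05 the counts were 1 with Smarcc1 and 0 with Smarca4 knockdown, and limma-voom on recovered reads called 0 and 0. Their summed level was 13.6 to 42.0 rpm in Nons, 12.4 to 29.4 rpm with Smarcc1 and 9.37 to 30.3 rpm with Smarca4 knockdown.

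Of 14 tested genes of desmosomes and keratin anchoring, 10 rose from day 4 to day 7 and 0 fell. Over all genes 64.5% changed and 35.7% rose. The median log2 difference of the list was 1.94. With Smarcc1 knockdown 4 fell, beside 3.08% of all genes, namely Perp (-1.71), a membrane protein of desmosomes, plakophilin 2 (Pkp2, -0.59), desmocollin 2 (Dsc2, -0.79) and desmoglein 2 (Dsg2, -0.95), all lower in 8 of 8 libraries. With Smarca4 knockdown 1 fell, Perp (-1.20), beside 1.96% of all genes. The list's median was -0.30 and 0.22 in the 2 knockdowns.

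Markers of other cells were read beside these results, and their part in them was not tested. Their counts stand beside 7.54% (Smarcc1) and 4.75% (Smarca4) of all genes that rose, and 3.08% and 1.96% that fell. Fewer cells of a type and less RNA per cell cannot be told apart in such bulk libraries. Of 9 pluripotency markers, 8 fell from day 4 to day 7, where 64.5% of all genes changed and 35.7% rose. With Smarcc1 knockdown 5 rose, among them Esrrb (1.84), Klf4 (1.81), Nanog (1.09) and Zfp42 (0.83). With Smarca4 knockdown 3 rose, namely Esrrb (1.24), Nanog (0.84) and Zfp42 (0.78). Tdgf1 (-0.30 with Smarcc1, -0.55 with Smarca4 knockdown) and Pou5f1 (-0.51 with Smarca4 knockdown) were lower without passing. On day 7 the summed level of these markers was 1068 rpm in Nons, 1827 and 1429 rpm with Smarcc1 and 1273 and 1310 rpm with Smarca4 knockdown. Dppa5a, the most abundant of them on average, ranged from 292 to 746 rpm over days in Nons. It was at least 549 rpm in each Smarcc1 and 617 rpm in each Smarca4 library. Dppa5a passed in neither knockdown (0.67 with Smarcc1, adjusted p = 0.0940, and 0.63 with Smarca4, adjusted p = 0.148, limma). It was not above same-day Nons in every library. Of 5 primordial germ cell markers tested, 4 rose with Smarcc1 knockdown, with Kit (1.62), Dppa3 (1.46) and Dazl (0.91) in all 8 libraries, and 2 rose with Smarca4 knockdown, Dppa3 (1.13) and Ddx4 (0.69). Of 7 mesenchyme markers tested, Acta2 (-1.22) and Twist1 (-0.67) fell and Col1a1 (1.32) rose with Smarcc1 knockdown, and Acta2 alone fell with Smarca4 knockdown. Their summed level on day 7 was 865 rpm in Nons, 506 and 457 rpm with Smarcc1 and 354 and 277 rpm with Smarca4 knockdown. Acta2 weighed most in this gap, as it alone reached 506 rpm in Nons, 170 rpm with Smarcc1 and 152 rpm with Smarca4 knockdown. Vim differed from Nons by 0.04 and 0.13 on the log2 scale and passed in neither knockdown. Of 6 primitive and visceral endoderm markers tested, 3 rose with Smarcc1 knockdown, with Cubn (1.17) in all 8 libraries, and 1 rose with Smarca4 knockdown. Of 6 non-neural ectoderm markers tested, none passed in either knockdown by limma, with 0 and 2 at an unadjusted p under 0.05 and 0 and 0 by limma-voom. The marker with the highest mean level was Dppa5a for pluripotency (292 to 746 rpm in Nons), Ddx4 for germ cells (56.7 to 66.7 rpm), Fn1 for mesenchyme (53.6 to 298 rpm), Esrp1 for non-neural ectoderm (60.3 to 95.5 rpm) and Col4a1 for endoderm (11.9 to 55.5 rpm).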

How the data were processed

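RNA was sequenced as single-end 75 bp reads. The authors trimmed and mapped them to mm10 (HISAT2 is named in the submitters' processing notes), counted reads per gene in SeqMonk and deposited log2 rpm (reads scaled to 1000000 a library) for each gene and library. The annotation release and strand use are not given in the sources used here. The lowest value in each library equals 0.9 read, and 100% of values under 1000 reads gave whole reads within 0.01, so read numbers were recovered. The 13296 genes whose log2 rpm averaged 0 or more were fitted with limma 3.58.1 (R 4.3.3, trend), with a mean for each of 12 combinations of condition and day and 8 residual degrees of freedom from hairpin pairs. Benjamini-Hochberg adjusted p under 0.05 was called, and ± is the SE. The script was tested on simulated data. Intervals of summed reads are exact and cover counting error only. Exon lengths and overlaps came from GENCODE M21, promoters from RefSeq. All 10 members are named, then both targets, up to 4 genes a list and knockdown that passed with 1 direction in all 8 libraries, and the 5 nearest genes by correlation for each member tested and the marker with the highest mean level in each list of markers. A few others were named after their values were seen (the remaining called paralogs, Krt20 and Krt42, and Perp and Acta2 with Smarca4 knockdown). Members and lists were chosen with earlier results of these data known. Alternatives covered scaling, filter, pseudocount, model, hairpins and days. The fit without the smallest library, and the keratin ratios, were chosen after seeing the data.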

Additional observations from a re-analysis of the deposited data

Results flagged for a closer look

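A difference between the effects of the 2 knockdowns passed its own test for Elf3 (Smarcc1 minus Smarca4 -0.60 on the log2 scale), Krt7 (-0.73), Krt8 (-0.75) and Krt18 (-0.66). Of all genes tested 4.09% passed it. None of these 4 calls was kept with the culture series as a block (limma, adjusted p from 0.0650 to 0.240) or without day 6. The effects of a knockdown also pointed in opposite directions on different days in 2 cases among the 7 members tested, in which both hairpins lay above Nons on one day and below it on another. For Gata3 with Smarcc1 knockdown the mean was 0.66 above Nons on day 4 and 0.65 below it on day 6, 1.31 log2 units apart, where hairpin 7 on day 6 lay within 0.01 of Nons. For Krt8 with Smarca4 knockdown the mean was 0.77 above Nons on day 5 and 0.57 below it on day 7, 1.34 log2 units apart. Neither of these differences between days was tested, and each day has 1 Nons library.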

How the results depend on the processing

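The number of members called was 6 for Smarcc1 knockdown against Nons. It was 3 with the replicate block (culture series as a random effect, estimated correlation 0.217), 3 without day 6, 3 without day 7 and 3 to 5 when 1 Smarcc1 hairpin was left out. For Smarcc1 against Smarca4 knockdown it was 4, and 0 with the replicate block, 0 without day 6, 1 without day 7 and 0 to 3 when a hairpin was left out. With the block, Krt7 (adjusted p = 0.0102), Krt19 (0.00436) and Tfap2c (0.0102) kept their Smarcc1 calls by limma, and Elf3, Krt8 and Krt18 lost theirs (adjusted p = 0.0767, 0.0863 and 0.0786). All 3 Smarca4 calls were kept. Over all genes the block gave 605, 258, 105, 9138, 292 and 52 calls in the 6 comparisons, and the filter at 3 gave 558, 326, 212, 5898, 22 and 4, against 1412, 892, 544, 8575, 125 and 18. Deviations of the 2 hairpins correlated between days from -0.206 to 0.367 (Smarca4) and from 0.0233 to 0.823 (Smarcc1). For Smarcc1 the pairs among days 5, 6 and 7 gave 0.44 to 0.823, and the pairs with day 4 gave 0.0233 to 0.0604. Not all values were above 0.1, so the block was kept as an alternative although libraries of 1 series share their hairpin. The main fit treats libraries of 1 series as independent. Limma-voom on recovered reads, centring and quantile normalization kept each of the 6 member counts within 1.5 times.

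Directions turned for small, uncalled differences, and the cause was not tested. Elf3 on day 7 against day 4 became 0.054 in an additive model and ranged from -0.064 to 0.038 with 1 hairpin left out. Gata3 (Smarcc1) became 0.203 without day 6 and 0.102 without day 7, and ranged from -0.285 to 0.264 with 1 hairpin left out. Tfap2c between the knockdowns became -0.0899 without day 4 and ranged from -0.0032 to 0.134 with 1 hairpin left out. The Krt7 slope (Smarca4) became -0.0238 with log2(rpm + 1) and ranged from -0.0408 to 0.161. Krt8 (Smarca4) became -0.0400 when centred, -0.0271 without day 4 and -0.21 without day 5. Krt18 (Smarca4) became 0.0018 without the smallest library and ranged from -0.271 to 0.0431 with 1 hairpin left out. Krt19 between the knockdowns became 0.0215 with log2(rpm + 1), 0.0054 when centred, 0.0272 with quantile normalization, and 0.0718, 0.0534 and 0.0088 without days 4, 5 and 6, and ranged from -0.0425 to 0.019 with 1 hairpin left out. Gata3 on day 7 against day 4 passed under 4 alternatives (adjusted p from 0.0254 to 0.0332).

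The single Nons library a day and the 8 residual degrees of freedom limit every comparison with the control. Depth limits Cdx2, Elf5 and Tfap2a.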
